A study of Mus musculus with 20 samples.

Results

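Splenic B cells that lack the kinase TAK1 were profiled before stimulation (0 h) and 6 h after anti-IgM, and the change between those times is described here. The arrays were chosen by their labelled genotype and time: 4 of the 20 arrays of the study, 2 at 0 h and 2 at 6 h. The TAK1-deleted cells came from mice labelled mb-1/TAK1f/f, in which the TAK1 alleles are floxed; mb-1 is another name of the B cell receptor gene Cd79a, whose promoter is used to drive Cre in the B lineage. The wild type cells came from mice labelled mb-1/TAK1+/+, so mb-1 is named for both genotypes. All mice were C57BL/6, of mixed sex and aged 8 to 12 weeks. B cells were isolated from spleen by removing cells that carry CD43, a surface protein of most leukocytes other than resting B cells, and were cultured in serum-containing medium. The antibody, which crosslinks the B cell receptor, was used at 10 µg/ml. The 2 TAK1-deleted arrays at 3 h and the 4 wild type arrays at 0 and 6 h serve as comparisons. Whether the 0 h cells spent time in culture is not stated. Nor is it stated whether the replicates came from different mice or cultures. The p-values then measure only how far these samples spread, and that spread may be technical.

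TAK1, the product of Map3k7, is a kinase that sits between membrane receptors and the IκB kinase and MAP kinase cascades. The B cell receptor uses protein kinase C and IκB kinase to release NF-κB dimers, and uses calcium, Ras and PI3 kinase branches in parallel. Stimulated B cells first transcribe immediate early genes, then enlarge by making ribosomes, nucleotides and lipids, and later enter the cell cycle.

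Expression was measured on whole-transcript gene arrays and deposited as log2 values. All differences below are differences of log2 values between group means ± SE from limma, fitted across all 20 arrays with 2 arrays per group, and a fold is 2 raised to such a difference. A gene was called when its two-sided p, adjusted by Benjamini-Hochberg over the 11968 genes tested, was below 0.05, and only called genes are said to have risen or fallen. The array medians lay between 7.37 and 7.52, and across genes the 2 arrays correlated at 0.982 at 0 h and 0.989 at 6 h. Map3k7 read 10.60 and 10.40 at 0 h and 10.70 and 10.64 at 6 h, a difference of 0.17 ± 0.14 (limma adjusted p = 0.378). This does not check the deletion, since the deleted part is not given in the labels and the probe positions were not analysed here. The B cell receptor chain Cd79a read 13.44 and 13.49 at 0 h, and Ms4a1, which encodes CD20, read 13.20 and 13.21. The defining B cell genes were thus high in the arrays labelled as B cells.

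By 6 h nuclear receptors of the Nr4a family, the IL-2 receptor chain Il2ra and many genes of ribosome, sterol and nucleotide synthesis were higher in the samples of TAK1-deleted cells, while macrophage genes, inhibitory receptors and mitotic genes were lower. Of 11968 genes, 4289 (35.8%) were called, 2218 (18.5%) up and 2071 (17.3%) down. Among these, 446 rose by at least 1 log2 unit and 802 fell by at least 1, while 50 rose and 188 fell by at least 2. In all called genes the 6 h arrays lay wholly above or wholly below the 0 h arrays, as they did in 4369 genes upwards and 3378 downwards among all tested. The median change over all genes was 0.06, and the median SE was 0.161. In wild type cells, measured on arrays of their own, 5169 genes (43.2%) were called, 2889 (24.1%) up and 2280 (19.1%) down.

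The largest rise was that of Grasp, a scaffold protein of receptor trafficking, which read 7.48 and 7.05 at 0 h and 11.53 and 11.20 at 6 h, a difference of 4.10 ± 0.24 or 17.2-fold (limma adjusted p = 4.11e-09). Nr4a3, an orphan nuclear receptor induced by antigen receptors, read 7.76 and 7.44 at 0 h and 11.86 and 11.48 at 6 h, a difference of 4.06 ± 0.16 or 16.7-fold (limma adjusted p = 1.25e-10). For both genes the 6 h arrays stood far above the 0 h arrays, and in every gene called up the 2 groups did not overlap. Its relative Nr4a2 rose by 3.74 ± 0.21, from 7.39 and 7.09 to 11.25 and 10.71. Mreg, melanoregulin, a protein of lysosome-related organelles, went from 8.42 and 7.84 to 11.87 and 11.67, a rise of 3.64 ± 0.20. Dusp4, a phosphatase that inactivates MAP kinases, went from 7.68 and 7.49 to 11.27 and 11.10, a rise of 12.2-fold. At 0 h Grasp, Nr4a3, Nr4a2 and Dusp4 lay near 7.45, the median of all values and the filter value used to keep a gene. Their rises thus started from dim values, which limits the size given for each.

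Il2ra, the α chain of the IL-2 receptor and an activation marker, read 8.91 and 8.60 at 0 h and 12.33 and 11.94 at 6 h, a difference of 3.38 ± 0.25 or 10.4-fold (limma adjusted p = 4.65e-08). Cables1, an adaptor of cyclin-dependent kinases, was dim at 0 h (6.67 and 6.60) and reached 10.02 and 9.90, a rise of 3.33 ± 0.17. The zinc finger factor Egr2 rose by 3.01 ± 0.22 and the polo-like kinase Plk2 by 2.97 ± 0.20. Ahr, the aryl hydrocarbon receptor, read 9.76 and 9.43 at 0 h and 12.53 and 12.47 at 6 h, a rise of 2.90 ± 0.12. These 10 genes rose in wild type cells too, by 2.01 (Plk2) to 3.79 (Grasp), with Cables1 at 2.16 there.

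**Figure D1:**
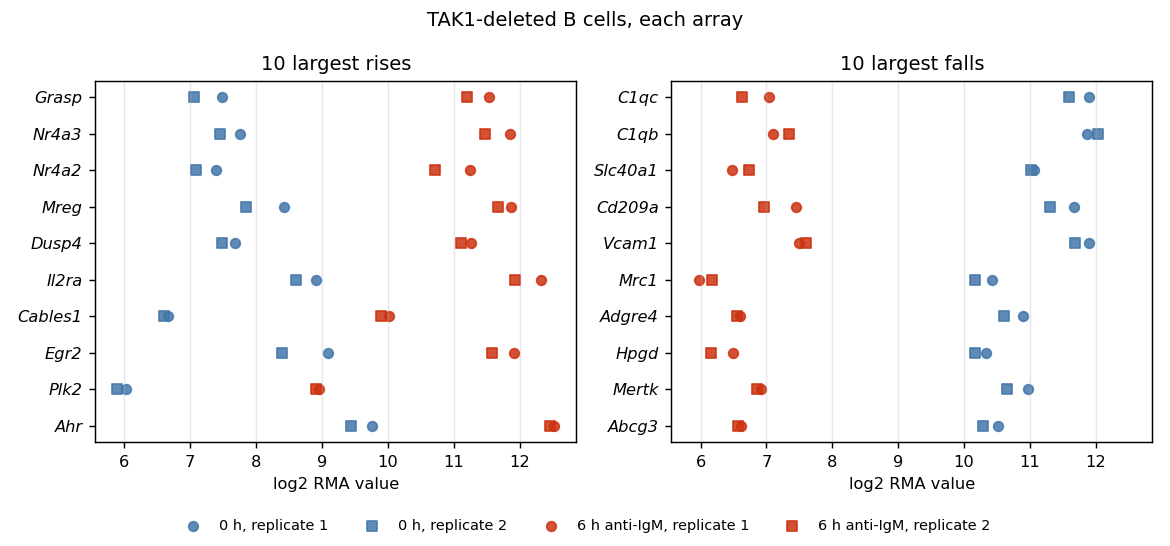
Log2 expression in each array of TAK1-deleted B cells at 0 h and 6 h of anti-IgM for the 10 genes that rose most and the 10 that fell most; colour marks the time and shape the replicate, and each point is 1 array. The 20 genes were chosen among those whose 6 h points lie apart from the 0 h points. Examples are Nr4a3 at 11.86 and 11.48 after 7.76 and 7.44, and C1qc at 7.04 and 6.63 after 11.90 and 11.59.

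The largest falls were in genes of splenic macrophages and dendritic cells. C1qc, a chain of complement C1q made by macrophages, read 11.90 and 11.59 at 0 h and 7.04 and 6.63 at 6 h, a difference of -4.91 ± 0.20 (limma adjusted p = 1.45e-10). C1qb, a second chain of the same protein, went from 11.86 and 12.03 to 7.11 and 7.34, 26.4-fold lower. At 6 h both genes were below the filter value of 7.45 used to keep a gene. Slc40a1, the iron exporter ferroportin, differed by -4.44 ± 0.15, and the lectin Cd209a of dendritic cells by -4.28 ± 0.20. Vcam1, an adhesion molecule of stromal cells and macrophages, differed by -4.25 ± 0.16 and Mrc1, the mannose receptor, by -4.22 ± 0.16. Adgre4, an adhesion receptor of myeloid cells, fell 18.2-fold, the prostaglandin-degrading enzyme Hpgd 15.1-fold and the engulfment receptor Mertk 15.1-fold. The transporter Abcg3 differed by -3.81 ± 0.20. In such bulk samples fewer cells of a type and less RNA per cell cannot be told apart. Each of the 10 genes also fell in wild type cells, by -3.41 (Mertk) to -5.02 (C1qb).

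Markers of other cell types were followed as whole lists. Of 20 monocyte and macrophage markers tested, 19 fell and 1, the scavenger receptor Marco, did not pass (-0.20). The list's median change was -3.09, against 0.06 over all genes. The linear values of those markers summed to 42680 and 39620 at 0 h and to 5490 and 4881 at 6 h, and in wild type cells to 42210 and 44150 at 0 h and 6735 and 6125 at 6 h. The markers of NK cells fell in 11 of 12 genes (median -0.90), those of neutrophils in 14 of 17 (median -0.85) and those of dendritic cells in 7 of 12 (median -0.85), with 1 dendritic marker called up. Ncr1, the NK receptor NKp46, went from 9.22 and 8.63 to 7.06 and 6.24, and Cxcr2, the neutrophil chemokine receptor, from 9.96 and 9.34 to 7.16 and 7.01. No array at 6 h reached the level of a 0 h array for either gene, as in every gene called down. T cell markers fell in 5 of 13 genes (median -0.46), among them Cd4, which differed by -1.37 ± 0.24. Platelet markers fell in 2 of 8, or in 0 or 1 when any of the 4 arrays was left out, against 17.3% of all genes.

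Erythroid markers fell in 16 of 17 genes, with a median of -1.25. Car1, erythroid carbonic anhydrase, read 13.40 and 13.13 at 0 h and 10.70 and 10.15 at 6 h, a difference of -2.84 ± 0.21. Rhag, a subunit of the red cell Rhesus complex, read 10.27 and 9.67 at 0 h and 7.32 and 6.95 at 6 h. The sum of the erythroid markers fell from 26960 and 22160 to 7976 and 7503, whereas in wild type cells it was 7988 and 7987 at 0 h and 5070 and 4805 at 6 h. The TAK1-deleted arrays at 0 h thus stood above the wild type arrays at 0 h. All 17 markers were called higher in them than in wild type cells at 0 h, with a median difference of 1.54, where 180 of 11968 genes (1.5%) were called higher and 98 (0.819%) lower. NK markers were lower in the TAK1-deleted arrays at 0 h, 9 of 12 by the same test, with a median difference of -1.10. T cell markers were lower in 5 of 13 and summed to 8688 and 6811 against 14320 and 11170 in wild type cells. Plasma cell markers were lower in 3 of 9, with a difference of -5.31 for Jchain, and summed to 10380 and 9247 against 17140 and 15850. The 0 h arrays of this genotype thus differed from those of wild type in the RNA of several other cell types, which bears on each value set against wild type below.

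**Figure D2:**
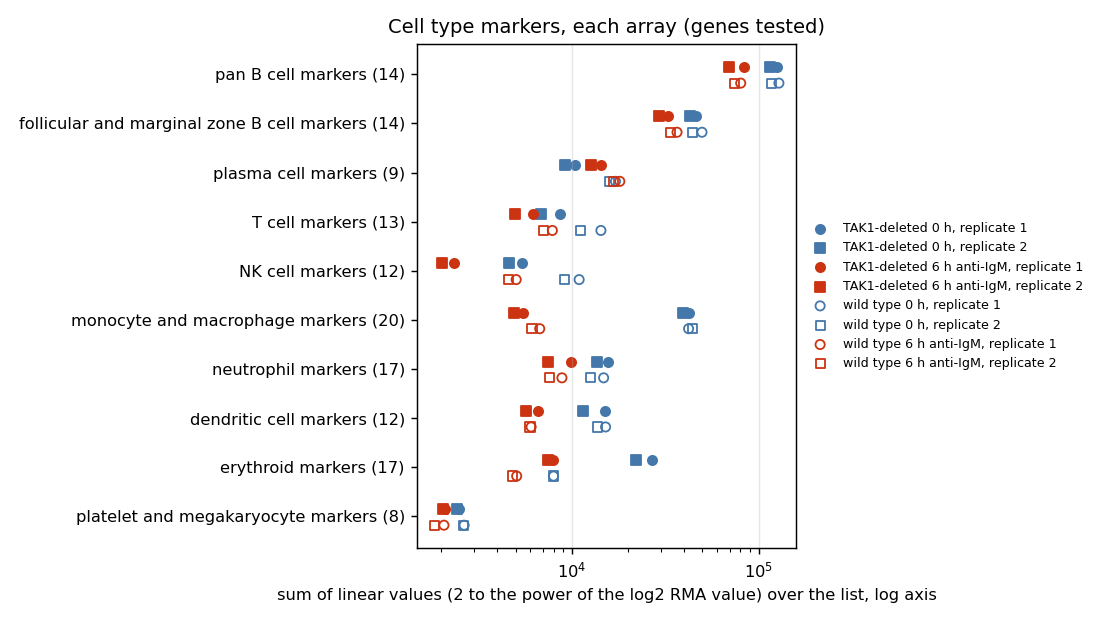
Summed linear expression of the marker lists of each cell type in the 2 arrays at 0 h and the 2 at 6 h of TAK1-deleted and wild type B cells, on a logarithmic axis; each point is 1 array. Macrophage markers dropped from 42680 and 39620 to 5490 and 4881 in TAK1-deleted cells, and erythroid markers at 0 h were 26960 and 22160 there against 7988 and 7987 in wild type cells.

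Over the B cell genes themselves, of 14 pan B cell markers 8 fell and 0 rose, with a median of -0.55. Ms4a1 went from 13.20 and 13.21 to 11.83 and 11.67, a fall of 1.46 on the log2 scale, and the lineage factor Pax5 from 12.61 and 12.50 to 11.21 and 11.22, a fall of 1.34. These remained bright genes, unlike the macrophage genes. Follicular and marginal zone markers fell in 9 of 14 genes and rose in 2, with a median of -1.18. Tm6sf1, a lysosomal membrane protein, differed by -2.64 ± 0.14, Cr2, the complement receptor CD21, by -2.50 ± 0.15, and Cd55, a complement regulator, by -2.41 ± 0.22. Of 9 plasma cell markers 2 rose and 2 fell, shares near those over all genes, 18.5% up and 17.3% down. Irf4, a transcription factor of activated B cells and plasma cells, rose by 1.69 ± 0.14, and Sdc1, the plasma cell antigen CD138, rose by 1.02 ± 0.14. Mzb1, a chaperone of immunoglobulin secretion, fell by 1.16 on the log2 scale. The J chain gene Jchain was also called down (-0.41), but lost the call when any of the 4 arrays was left out.

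Some immediate early genes were far above their 0 h level at 6 h. Of 35 tested 18 rose, 3 fell and 14 were not called, with a median of 0.58. The wild type counts were 18 and 7, with a median of 0.46. Beside the Nr4a family and Egr2, Rgs1, a regulator of G protein signalling, rose by 2.48 ± 0.14, Fosl2, a member of the AP-1 family, by 1.94 ± 0.15, and the proto-oncogene Myc by 1.10 ± 0.15. Myc read 12.02 and 11.56 at 0 h and 13.01 and 12.78 at 6 h. Fos and Egr1, the best known of the class, were not called. Fos read 7.93 and 7.95 at 0 h and 7.51 and 7.50 at 6 h (-0.43 ± 0.17, limma adjusted p = 0.0612, or 0.00419 with the replicate number as a block). Egr1 read 10.01 and 9.68 at 0 h and 10.40 and 9.97 at 6 h (0.34 ± 0.19, limma adjusted p = 0.199, or 0.0266 with the block). The 3 that fell were Dusp6, a phosphatase of ERK that read 10.72 and 10.60 and then 9.05 and 8.88, Btg2 and Id3. With the replicate block 7 of the list fell.

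Known target genes of NF-κB rose more often than they fell. Of 36 tested 19 rose (16 to 18 with 1 of the 4 arrays left out) and 3 fell, with a median of 0.44, against 21 and 1 and a median of 0.64 in wild type cells. The chemokine Ccl3 read 9.39 and 8.80 at 0 h and 12.15 and 11.78 at 6 h, a rise of 2.87 ± 0.21, and Ccl22 rose by 2.10 ± 0.16. Gadd45b, a stress-response regulator of MAP kinase signalling, rose by 1.68 ± 0.11, and the costimulatory molecules Cd83 and Cd86 by 1.56 ± 0.10 and 1.37 ± 0.17. Bcl2l1, the gene of the anti-apoptotic protein Bcl-xL, read 7.41 and 7.56 at 0 h and 8.72 and 8.79 at 6 h, a rise of 1.27 ± 0.13. Each of these had its 6 h arrays above its 0 h arrays, as every gene called up did. The NF-κB inhibitor Nfkbia, a feedback target, differed by 0.31 ± 0.10 (limma adjusted p = 0.0179), a call lost without 0 h replicate 2 or either 6 h array. It was also lost with array medians set equal and when the fit used only the arrays of the 2 groups. The ubiquitin editor Tnfaip3, which encodes A20, differed by 0.46 ± 0.16 (limma adjusted p = 0.028). That call was lost when any of the 4 arrays was left out and when the fit used only the arrays of the 2 groups. The members that fell were Birc3, Cd40 and Ebi3, and 5 fell with the replicate block. Il10 read 5.81 and 5.80 at 0 h and 6.25 and 5.93 at 6 h, which was not called (0.28 ± 0.24, limma adjusted p = 0.391). The death receptor Fas was not called either (0.34 ± 0.19, limma adjusted p = 0.186).

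Of 22 components of the pathway around TAK1 5 rose and 5 fell, with a median of 0.10 against 0.06 over all genes. These shares are near those over all genes, 18.5% up and 17.3% down. The NF-κB subunits Relb and Rel rose by 0.74 ± 0.16 and 0.67 ± 0.10, and the inhibitor Nfkbib and the linear ubiquitin ligase subunits Rnf31 and Rbck1 rose by 0.31 to 0.59. The adaptor Traf5 (-0.86), the deubiquitinase Cyld (-0.75), the paracaspase Malt1 (-0.70), the IκB kinase subunit Ikbkb (-0.62) and the kinase Map3k14 (-0.53) fell. The count that rose was 3 without 0 h replicate 2 or 6 h replicate 1, and the count that fell was 2 without 0 h replicate 1 and 3 without 6 h replicate 2.

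Genes of B cell receptor signalling fell more often than they rose, 17 against 4 of 29, with a median of -0.49. Bank1, an adaptor of the receptor, read 13.11 and 12.93 at 0 h and 10.08 and 9.66 at 6 h, a difference of -3.15 ± 0.18 or 8.86-fold lower (limma adjusted p = 3.76e-09). Syk, the kinase recruited by the receptor, went from 12.32 and 12.25 to 10.56 and 10.55, a difference of -1.73 ± 0.15. The receptor heavy chain Ighm differed by -1.32 ± 0.18, the Ras activator Rasgrp1 by -1.42 ± 0.20, the signalling chain Cd79a by -1.18 ± 0.17 and protein kinase C beta (Prkcb) by -1.17 ± 0.11. Fyn, a Src family kinase, went the other way, from 10.49 and 10.25 to 12.02 and 12.23. The others that rose were Nfatc1, Vav3 and Pik3ap1, and the count was 2 without 0 h replicate 2 or without either 6 h array. Wild type cells showed 19 falls and 3 rises in this list, with a median of -0.63.

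Inhibitory receptors and phosphatases fell in 11 of 17 genes, with a median of -1.15. Ceacam1, an adhesion receptor with inhibitory motifs, read 11.44 and 11.38 and then 9.15 and 8.40, a difference of -2.64 ± 0.29. The sialic acid receptors Cd22 and Siglecg and the paired receptor Pirb differed by -2.52 ± 0.20, -2.46 ± 0.19 and -2.32 ± 0.19. Pdcd1, which encodes PD-1, was the 1 member that rose (0.84), and 3 rose with the replicate block. Toll-like receptors and their adaptors fell in 10 of 18 genes and rose in 0, with a median of -0.50. Tlr1, a partner of TLR2 in sensing lipopeptides, read 11.76 and 11.75 at 0 h and 8.91 and 8.81 at 6 h, a difference of -2.90 ± 0.15. The falls of Tlr3 (-2.43 ± 0.24) and Tlr4 (-2.05 ± 0.20) were nearly as large, whereas Tlr7 (0.25) was not called. Macrophages also express several of these receptors, and the summed macrophage markers fell from 42680 and 39620 to 5490 and 4881 over the same arrays, and their part in the falls was not tested.

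Antigen presentation genes were lower or did not pass the test. Of 13 genes of MHC class II presentation 7 fell, with a median of -0.55. H2-Oa, a subunit of the peptide-editing inhibitor H2-O, went from 11.89 and 11.73 to 10.46 and 9.79. The ubiquitin ligase Marchf1, which removes MHC class II from the surface, differed by -1.44 ± 0.12, and the transactivator Ciita by -0.90 ± 0.15. The lysosomal protease list fell in 12 of 24 genes with 0 rises, led by cathepsin B (Ctsb), which went from 12.59 and 12.56 to 10.82 and 10.61. Macrophages are rich in cathepsins too, and the part of macrophage RNA in these values was not tested.

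Of 21 surface markers of activation tested 7 rose and 4 fell, with a median of 0.05. Over all genes 18.5% rose and 17.3% fell, with a median of 0.06. The share of these markers that fell is thus near that over all genes. Cd69, an early activation marker, read 10.52 and 10.26 at 0 h and 11.76 and 11.57 at 6 h, a rise of 1.28 ± 0.15. Slamf1, a self-ligand receptor of lymphocytes and myeloid cells, went the opposite way, from 10.40 and 10.23 to 7.33 and 6.70, a difference of -3.30 ± 0.22. Cd40, the receptor for T cell help, differed by -0.74 ± 0.10 and Il4ra, the IL-4 receptor chain, by -0.72 ± 0.09. Of 19 secreted factors 7 rose and 4 fell, the falls again near the share over all genes. Vegfa, an angiogenic factor, rose by 1.86 ± 0.20, and Csf1, the macrophage growth factor, by 1.33 ± 0.24. The lymphotoxin genes Ltb and Lta, which B cells use to organise lymphoid tissue, differed by -2.26 ± 0.12 and -1.94 ± 0.20. Cxcl9, a chemokine induced by interferon gamma, differed by -1.89 ± 0.21.

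**Figure D3:**
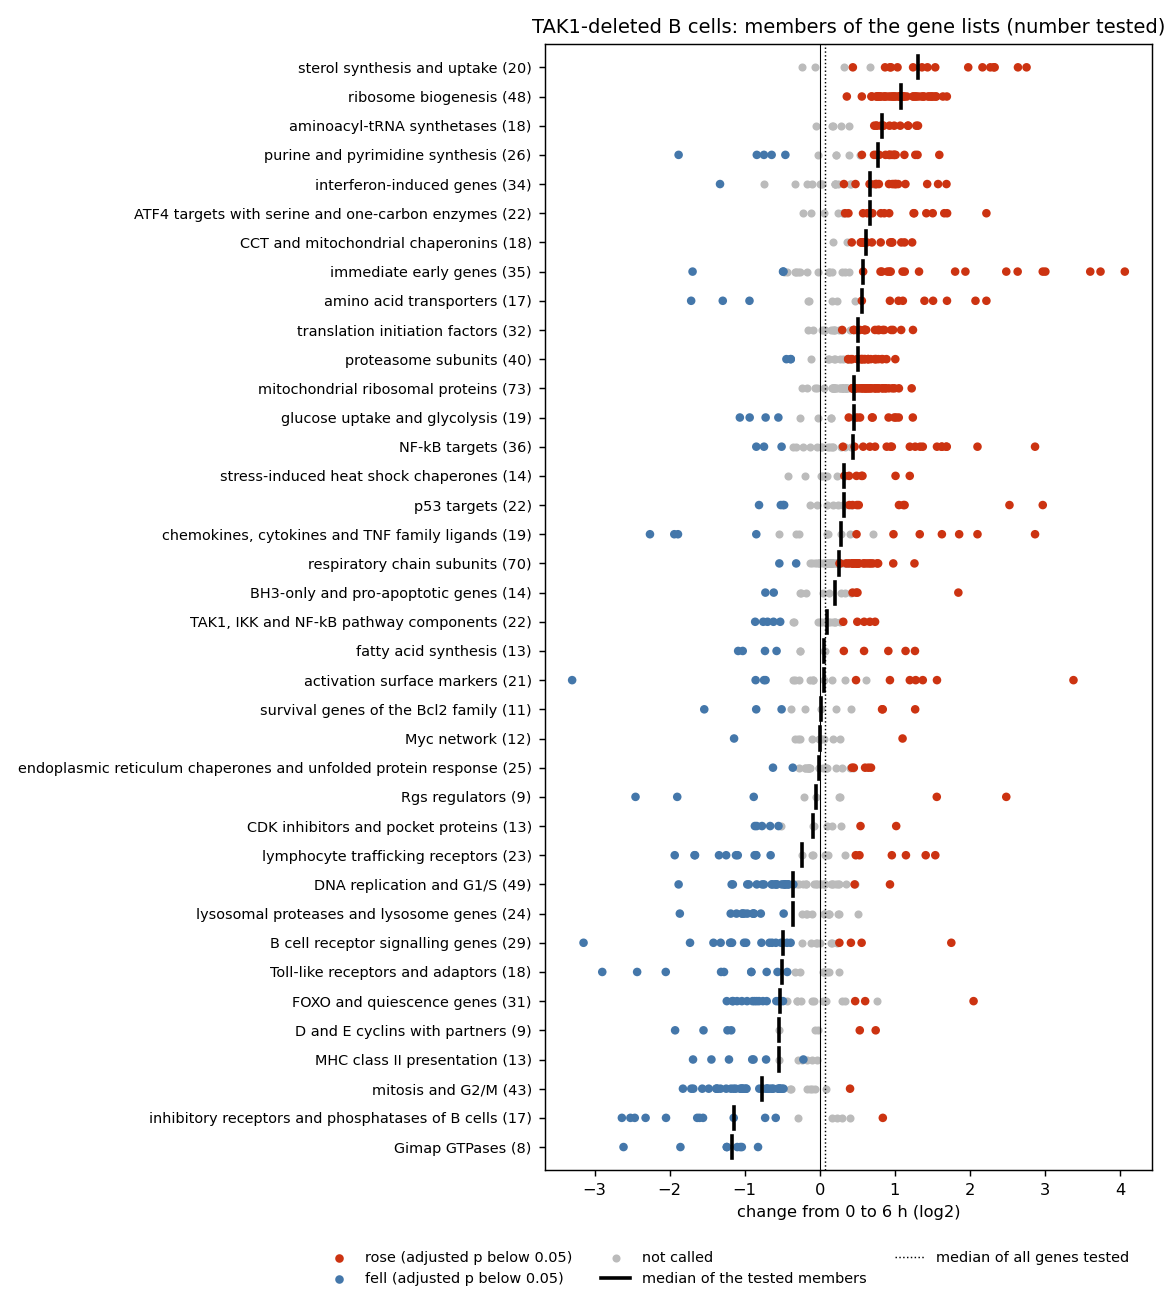
Change from 0 to 6 h in TAK1-deleted B cells for the tested members of the gene lists other than cell type markers; each point is 1 gene as a log2 difference of group means, coloured by whether it rose, fell or was not called, and the bars mark list medians. The medians run from -1.17 for the Gimap GTPases to 1.30 for sterol synthesis, against 0.06 over all genes tested (dotted line).

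Ribosome biogenesis rose as a whole list: 48 of 48 genes tested were called up, with a median of 1.08. The smallest rise was that of Imp3 (0.36) and the largest that of Rrp1b (1.69 ± 0.15), both factors of ribosomal RNA processing. Utp20, a component of the small subunit processome, read 9.55 and 9.31 at 0 h and 11.05 and 11.09 at 6 h, a rise of 1.64 ± 0.18. Rcl1, an endonuclease-like processing factor, rose by 1.55 ± 0.12, and Nhp2, a core protein of H/ACA ribonucleoproteins, by 1.54 ± 0.21. The 6 h arrays lay above the 0 h arrays for all of these, as for every gene called up. In wild type cells 47 of the 48 rose, with a median of 1.55.

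Promoters of this list were searched for CACGTG, the E-box bound by Myc and its relatives, which reads the same on both strands. The windows, from RefSeq on GRCm38.p6, run from 250 bases before to 50 after each start. The motif stood in 12 of 46 promoters (26.1%; 43 of the 48 genes matched), against 7.15% of all 32851 promoters. Utp20 is shown because it had the largest rise among the members with the motif. A 30-base stretch on the minus strand after its start, at chr10:88826765-88826794, holds it, and the capitals mark the motif, 37 bases after the start.
Utp20: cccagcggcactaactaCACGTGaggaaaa
A match is a description, not a binding site.

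The median changes of other parts of the translation apparatus were smaller. Translation initiation factors rose in 19 of 32 genes with 0 falls (median 0.51), led by Eif2b3, a subunit of the exchange factor eIF2B, at 1.24 ± 0.17. Aminoacyl-tRNA synthetases rose in 13 of 18 with 0 falls (median 0.83), and the bifunctional synthetase Eprs went from 10.44 and 10.16 to 11.58 and 11.64. Mitochondrial ribosomal proteins rose in 35 of 73 (median 0.46), a count that was 23 without 0 h replicate 2 and 53 with the replicate block. The subunit Mrpl54 of the large mitochondrial ribosome rose by 1.22 ± 0.16. Respiratory chain subunits rose in 25 of 70 (median 0.26) and fell in 2, or in 0 or 1 when any of the 4 arrays was left out. Uqcrq of complex III read 8.86 and 9.28 at 0 h and 10.28 and 10.39 at 6 h. The nuclear-encoded mitochondrial genes thus lay nearer to the median of all genes than the nucleolar ones.

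The cytosolic CCT and mitochondrial chaperonins rose in 16 of 18 genes (median 0.61). Hspa9, the mitochondrial Hsp70, read 11.26 and 11.28 and then 12.36 and 12.64, a rise of 1.23 ± 0.11, and the chaperonin subunit Cct3 rose by 1.13 ± 0.16. Stress-induced heat shock chaperones rose in 7 of 14, or in 4 without 0 h replicate 1 and 3 without 0 h replicate 2. The inducible Hspa1a rose by 1.20 ± 0.21. Proteasome subunits rose in 26 of 40 and fell in 3 (median 0.51), with 17 rises without 0 h replicate 2. Psmc5, an ATPase of the regulatory particle, rose by 0.89 ± 0.12, whereas the members that fell, Psmb8, Psmb9 and Psmb10, are the interferon-inducible subunits of the immunoproteasome (-0.39, -0.39 and -0.44). Those 3 falls were 0 calls without 0 h replicate 1 or without 6 h replicate 2. Endoplasmic reticulum chaperones rose in 5 of 25, a share near that over all genes (18.5%), and fell in 2, with a median of -0.01, a sign that turned with the scaling. There were 3 rises without 6 h replicate 2, 1 fall when any of the 4 arrays was left out, and 9 rises with the replicate block. Hyou1, a chaperone of that compartment, rose by 0.68 ± 0.11.

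Sterol synthesis and uptake was the list with the highest median, 1.30, with 16 of 20 genes up and 0 down. Cyp51, the lanosterol demethylase, read 7.69 and 7.33 at 0 h and 10.20 and 10.33 at 6 h, a rise of 6.75-fold (limma adjusted p = 1.71e-08). Idi1, isopentenyl diphosphate isomerase, rose by 2.64 ± 0.22, Hmgcs1, which makes HMG-CoA, by 2.33 ± 0.15, and Insig1, the sterol sensor that retains SREBP, by 2.32 ± 0.26. The squalene epoxidase Sqle went from 8.46 and 8.23 to 10.74 and 10.49. Wild type cells had the same counts, with a median of 1.37. Fatty acid synthesis did not move as one, with 5 up and 4 down of 13 and a median of 0.06. The synthase Fasn read 10.75 and 10.69 and then 12.00 and 11.98, a rise of 1.27 ± 0.11, and the carboxylase Acaca rose by 1.14 ± 0.12. The desaturases Fads2 (-1.09 ± 0.21) and Scd2 (-1.03 ± 0.25) fell. Without 6 h replicate 2 Scd2 had an adjusted p of 0.0508, and 2 of the list fell.

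The sterol regulatory element TCACNCCAC, searched on both strands in the same windows, was found in 1 of 19 promoters of the list (5.26%; 16 of the 20 genes matched), against 1.24% of all promoters. That promoter is Hmgcs1, shown as the 250 bases before its start on the plus strand, chr13:119690101-119690350, with the element in capitals 137 bases before the start.
Hmgcs1: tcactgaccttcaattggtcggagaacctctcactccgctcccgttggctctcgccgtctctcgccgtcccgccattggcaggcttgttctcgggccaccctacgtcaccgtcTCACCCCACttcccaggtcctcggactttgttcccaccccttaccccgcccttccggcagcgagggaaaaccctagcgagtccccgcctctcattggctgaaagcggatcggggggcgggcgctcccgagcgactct
No match says only that these letters are not in the window.

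Amino acid, sugar and nucleotide metabolism held genes that rose and genes that fell. Over all genes 18.5% rose and 17.3% fell. The shares that fell among the amino acid transporters, nucleotide synthesis and glycolysis genes were near that share. ATF4 targets with serine and one-carbon enzymes rose in 15 of 22 genes with 0 falls (median 0.67). The cystine transporter Slc7a11 read 7.01 and 6.77 at 0 h and 9.23 and 8.99 at 6 h, a rise of 2.22 ± 0.19. The serine and one-carbon enzymes Shmt1, Psat1 and Shmt2 rose 3.24-fold, 3.16-fold and 2.84-fold. Amino acid transporters rose in 9 of 17 and fell in 3 (median 0.56), with the neutral amino acid transporter Slc1a4 up by 2.07 ± 0.14 and Slc43a2, a carrier of large neutral amino acids, down by 1.71 on the log2 scale. Purine and pyrimidine synthesis rose in 16 of 26 (median 0.77). Ctps, CTP synthase, went from 8.37 and 7.85 to 9.71 and 9.70, and Cad, the first enzyme of pyrimidine synthesis, from 10.02 and 10.02 to 11.23 and 11.41. The 5 that fell in this list were Rrm2, Rrm1, Tyms, Tk1 and Ctps2, of which Ctps2 is a CTP synthase and the others make deoxynucleotides. The count was 3 without 0 h replicate 1 or without 6 h replicate 2. Rrm2, the small subunit of ribonucleotide reductase, read 10.68 and 10.11 and then 8.59 and 8.44, a difference of -1.88 ± 0.20. Glycolysis rose in 10 of 19 and fell in 4 (median 0.45; 2 falls without 0 h replicate 1). The phosphofructokinase Pfkp rose by 1.24 ± 0.18 and lactate dehydrogenase Ldha by 1.05 ± 0.12, while the glucose transporter Slc2a3 differed by -1.06 ± 0.18.

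Most mitotic genes were lower at 6 h than before stimulation. Of 43 genes of mitosis and G2/M 35 fell and 1 rose, with a median of -0.77. In wild type cells 9 fell and 1 rose, with a median of -0.28. The main fit of the difference in change between genotypes, given below, called 0 of these 43 genes. The median of that difference was -0.61 over the list, against -0.01 over all genes. A gene not called is not shown to change alike in both genotypes. Ccna2, cyclin A2, read 11.15 and 10.87 at 0 h and 9.31 and 9.06 at 6 h, a difference of -1.82 ± 0.20 or 3.54-fold lower (limma adjusted p = 3.57e-06). The proliferation marker Mki67 went from 10.78 and 10.61 to 8.98 and 8.99, a difference of -1.71 ± 0.13, and the checkpoint kinase Bub1 from 9.17 and 8.89 to 7.43 and 7.27. For these 3 genes no 6 h array reached a 0 h array, as for every gene called down. The fall count was 23 without 0 h replicate 1, and the single rise, that of Bub3 (0.40), was lost without either 0 h array or without 6 h replicate 2. Genes of DNA replication and G1/S fell in 20 of 49 and rose in 2, with a median of -0.35. The falls were 9 without 0 h replicate 1 and 11 without 6 h replicate 2, and 4 rose with the replicate block. Cdc6, which loads the replicative helicase, differed by -0.97 ± 0.16. Pold2, a subunit of DNA polymerase delta, rose, from 10.88 and 10.61 to 11.81 and 11.55. In wild type cells this list rose in 11 genes and fell in 5, with a median of 0.08. The difference in change between genotypes was called in 0 of its 49 genes in the main fit, with a median of -0.40.

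Over the same arrays the sum of the erythroid markers fell from 26960 and 22160 to 7976 and 7503 in TAK1-deleted cells. In wild type cells, where the replication list had a median of 0.08, that sum fell from 7988 and 7987 to 5070 and 4805. At 0 h the mitotic list lay 0.45 and the replication list 0.30 above wild type in the median. The part of erythroid cells in the cell cycle values was not tested.

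The D-type and E-type cyclins were split from their kinases. Ccnd1, cyclin D1, read 10.80 and 10.48 at 0 h and 8.71 and 8.71 at 6 h, a difference of -1.93 ± 0.16. Ccne1, Ccnd3 and Ccne2 differed by -1.55 ± 0.15, -1.23 ± 0.25 and -1.18 ± 0.16, while the kinases Cdk6 and Cdk4 rose by 0.75 and 0.53. Of those 2 rises 1 was left without 0 h replicate 2 or without 6 h replicate 1. Ccnd2, the cyclin that B cells raise on receptor stimulation, read 11.21 and 10.86 at 0 h and 10.99 and 10.94 at 6 h, values that overlap (-0.07 ± 0.17, limma adjusted p = 0.807). Among CDK inhibitors and pocket proteins 5 of 13 fell and 2 rose, against 17.3% down and 18.5% up over all genes. Cdkn2c, which encodes p18, differed by -0.86 ± 0.19, and E2f5, a repressive E2F, rose by 1.02 ± 0.22. There were 3 falls without 0 h replicate 1 or without 6 h replicate 2, and 1 rise without 0 h replicate 1 or without 6 h replicate 1.

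The CCAAT box, bound by NF-Y and common in mitotic promoters, was searched as CCAAT or ATTGG. It stood in 33 of 40 promoters of the mitotic list (82.5%; 37 of the 43 genes matched), against 37.4% of all promoters. Mki67 is shown because it fell the most among the members whose promoters in the table hold the box; the 250 bases before its start on the minus strand, chr7:135716380-135716629, carry 3 copies in capitals, the first 188 bases before the start.
Mki67: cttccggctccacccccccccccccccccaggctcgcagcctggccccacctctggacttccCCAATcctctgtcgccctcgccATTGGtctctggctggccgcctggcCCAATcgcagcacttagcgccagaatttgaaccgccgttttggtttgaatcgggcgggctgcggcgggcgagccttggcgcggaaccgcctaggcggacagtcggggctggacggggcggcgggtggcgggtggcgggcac
The box is short and frequent, which the share over all promoters shows.

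Genes of survival and death held rises and falls, as all genes did (18.5% up and 17.3% down). In the Bcl2 family's survival list 3 of 11 rose and 3 fell. Bcl2 itself read 12.32 and 12.12 at 0 h and 10.76 and 10.60 at 6 h, a difference of -1.54 ± 0.15, and Mcl1 differed by -0.85 ± 0.13. Bcl2l1 rose, as given above, and the survival kinases Pim3 and Pim1 rose by 0.84 ± 0.13 and 0.83 ± 0.15. Among pro-apoptotic genes 4 of 14 rose and 2 fell, with 1 fall without 0 h replicate 1 or without 6 h replicate 2. Bcl2l11, which encodes Bim, read 9.85 and 9.61 and then 11.66 and 11.49, a rise of 1.85 ± 0.17. Targets of p53 rose in 9 of 22 and fell in 4 (median 0.32), with 2 falls without 0 h replicate 1 or without either 6 h array. Plk3, a stress-responsive polo-like kinase, rose by 2.53 ± 0.28 and Aen, an apoptosis-enhancing nuclease, by 1.11 ± 0.15. The p53 inhibitor and target Mdm2 was not called (-0.03).

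FOXO and quiescence genes fell in 17 of 31 and rose in 3 (median -0.52). The quiescence factor Klf2 went from 11.11 and 10.93 to 9.95 and 9.61, and the glucose uptake inhibitor Txnip from 12.33 and 12.47 to 11.18 and 11.31. Irs2, an insulin receptor substrate, is among the 3 that rose (2.05 ± 0.12). The falls were 11 without 0 h replicate 1 and 10 without 6 h replicate 2. There was 1 rise without 0 h replicate 2 or without 6 h replicate 1, and there were 6 with the replicate block. The Gimap GTPases, which support lymphocyte survival, fell in 8 of 8 genes (median -1.17), with Gimap7 at 10.18 and 10.11 and then 7.66 and 7.41. Of the Myc network, only Myc rose and Mxd4, a competitor of Myc for Max, fell (-1.14 ± 0.14) among 12 genes, or 3 fell with the replicate block. Without the block 18.5% of all genes rose and 17.3% fell.

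Trafficking receptors fell in 11 of 23 and rose in 6, with a median of -0.24. The chemokine receptor Ccr6 went from 10.77 and 10.51 to 12.19 and 12.17, and Cxcr4, the receptor for CXCL12, went from 11.12 and 10.87 to 12.56 and 12.26. The integrin chain Itgb7 (-1.93 ± 0.15), the lipid receptor Gpr18 (-1.67 ± 0.19) and the cannabinoid receptor Cnr2 (-1.66 ± 0.18) fell. Regulators of G protein signalling gave 2 rises and 3 falls of 9, against 18.5% up and 17.3% down over all genes. Rgs18 went from 9.42 and 9.30 to 6.88 and 6.93 and Rgs14 from 9.77 and 9.50 to 7.91 and 7.56, opposite to Rgs1 and to Rgs16 (1.56 ± 0.14).

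Interferon-induced genes rose in 17 of 34 and fell in 1, with a median of 0.67, against 27 and 1 and a median of 1.20 in wild type cells. Fewer of the list rose in TAK1-deleted cells without 0 h replicate 2 or without either 6 h array. The difference in change between genotypes was called in 0 of the 34 in the main fit. Its median was -0.60 over the list, against -0.01 over all genes. Oasl1, an inhibitor of Irf7 translation, read 9.22 and 8.89 at 0 h and 10.91 and 10.57 at 6 h, a rise of 1.69 ± 0.19. The deconjugating enzyme Usp18, which restrains interferon receptor signalling, rose by 1.58 ± 0.15, and Ifit1, which binds foreign RNA caps, by 1.43 ± 0.15. Gbp3, a guanylate-binding protein, was the member that fell (-1.33 ± 0.18), and 3 fell with the replicate block.

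The core of the interferon-stimulated response element, GAAANNGAA or TTCNNTTTC on the other strand, was found in 15 of 29 promoters of this list (51.7%; 25 of the 34 genes matched), against 8.56% of all promoters. Ifit1 is shown because it changed the most among the members whose promoters hold the core. Its 250 bases before the start on the plus strand, chr19:34640639-34640888, carry the core in 3 places in capitals, of which the first begins 109 bases before the start and overlaps the second.
Ifit1: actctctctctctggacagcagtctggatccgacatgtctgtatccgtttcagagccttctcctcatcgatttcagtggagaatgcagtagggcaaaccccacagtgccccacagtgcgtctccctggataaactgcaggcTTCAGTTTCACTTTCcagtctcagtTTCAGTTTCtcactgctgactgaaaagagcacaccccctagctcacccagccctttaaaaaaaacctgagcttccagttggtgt
Ifit1 read 8.34 and 8.47 at 0 h and 9.96 and 9.71 at 6 h.

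The step from 3 to 6 h was examined in the same genotype; it shares the 6 h arrays with the comparison above. Limma called 728 genes (6.08%), 438 (3.66%) higher at 6 h than at 3 h and 290 (2.42%) lower, 2486 with the replicate block and 22 with the arrays of those groups alone. The count was 241 without 6 h replicate 1, 309 without 6 h replicate 2, 336 without 3 h replicate 2 and 534 without 3 h replicate 1. Higher calls made up 60.2% of the total, but 38.6% once array medians were set equal and 51.8% after quantile normalization. Interferon-induced genes were higher at 6 h in 26 of 34, with a median of 1.22 (20 to 27 with 1 array left out). Oasl2, an oligoadenylate synthetase-like protein, was higher at 6 h than at 3 h by 1.74 and Usp18 by 1.97. Herc6, the ISG15 ligase, was higher by 1.82, although its 6 h level did not differ from 0 h by the test (0.00 ± 0.18, limma adjusted p = 0.989). The largest differences of this step were those of Apol7c (2.68), Trim30d, a tripartite motif protein (2.08), Usp18, Herc6, the schlafen protein Slfn5 (1.75) and Oasl2. Apol7c and Oasl2 lost the call with the arrays of the 2 groups alone (limma adjusted p = 0.08 and 0.0802). The immunoproteasome genes Psmb8 and Psmb9 and 4 other proteasome subunits were also higher at 6 h than at 3 h, or 3 to 4 in all when 1 array was left out. With the arrays of the 2 groups alone Psmb8 and Psmb9 were not called (limma adjusted p = 0.11 and 0.0956).

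Sterol genes were higher at 6 h than at 3 h in 15 of 20, with a median of 0.81, a count that was 8 without 3 h replicate 2 and at most 12 without another array. The squalene synthase Fdft1 and the reductase Hsd17b7 were among them, though not with the arrays of the 2 groups alone (limma adjusted p = 0.142 and 0.0918). Immediate early genes were lower in 12 of 35 and higher in 1, with a median of -0.49. The lower count was 6 without 3 h replicate 1 and up to 13 without another array. Plk2 was lower at 6 h than at 3 h by 1.70 on the log2 scale, but still 2.97 above 0 h. The polarity protein Mpp7 showed a rise and return, being 2.83 above 0 h at 3 h and lower by 2.92 at 6 h. The small heat shock protein Hspb1 (-2.35), the adhesion protein Lpp (-2.15), the scavenger receptor Cd36 (-1.92) and the integrin chain Itga9 (-1.71) were the other large declines, and of the 6 genes Hspb1 lost the call with the arrays of the 2 groups alone (limma adjusted p = 0.107).

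Set beside the other times, which share the 0 h arrays, the list medians in TAK1-deleted cells peaked at different hours. Immediate early genes had medians of 2.01 at 1 h, 1.04 at 3 h, 0.58 at 6 h and 0.43 at 24 h. Ribosome biogenesis had 0.36, 1.32, 1.08 and 0.56 at the same times, and sterol synthesis 0.21, 0.57, 1.30 and 1.09. Interferon-induced genes went from -0.52 and -0.60 to 0.67 at 6 h and then -0.19. The mitotic list had 0.02, -0.68, -0.77 and -0.18, and the B cell receptor signalling genes -0.15, -0.67, -0.49 and -0.17. Over all genes the median was between -0.03 and 0.06 at each time.

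**Figure D4:**
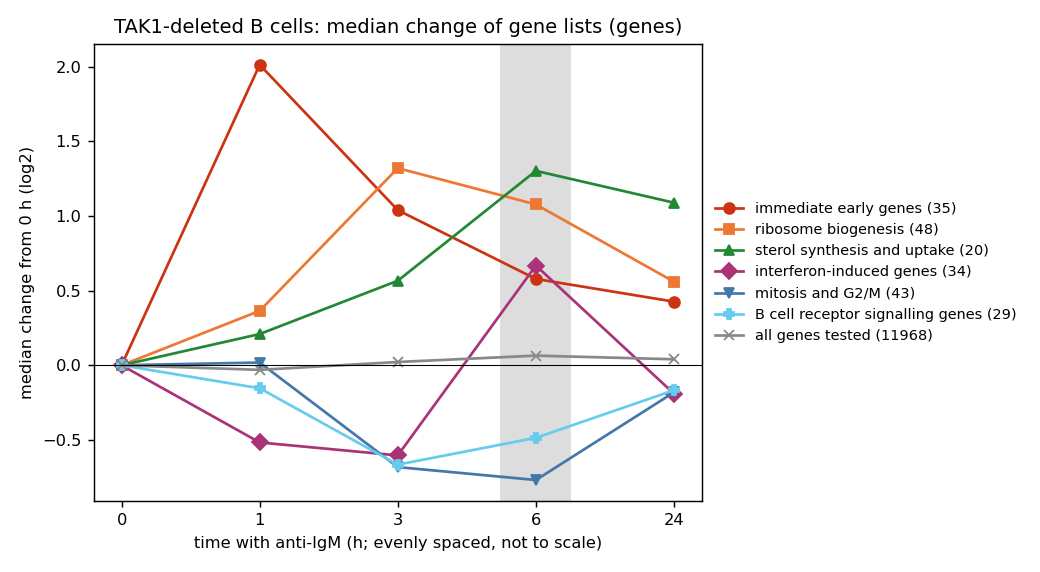
Median log2 difference from 0 h of 6 gene lists and of all genes tested in TAK1-deleted B cells at 1, 3, 6 and 24 h of anti-IgM; times are evenly spaced on the axis, the grey band marks 6 h and each point is a list's median. The immediate early list falls from 2.01 at 1 h to 0.58 at 6 h, while sterol synthesis reaches 1.30 and interferon-induced genes 0.67 at 6 h.

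The change from 0 to 6 h was then compared between genotypes by an interaction term. Limma called 34 genes (0.284%), 11 (0.0919%) with a more positive and 23 (0.192%) with a more negative change in TAK1-deleted than in wild type cells. The median SE of this difference was 0.227, and 1027 genes had an unadjusted p below 0.05. The count was 772 with the replicate number as a block. It was 0 without TAK1-deleted 0 h replicate 1 or TAK1-deleted 6 h replicate 2, 14 without TAK1-deleted 6 h replicate 1, and 36 without TAK1-deleted 0 h replicate 2. With a wild type array left out it was 8 or 18 without 0 h replicate 1 or 2, and 1 or 4 without 6 h replicate 1 or 2. Each named call below was therefore lost in at least 1 of these fits, and over all alternatives the adjusted p reached 0.0677 for Il10 and Cr2 and 0.217 for Rtn4rl1.

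Between the genotypes, 278 genes (2.32%) were called at 0 h and 303 (2.53%) at 6 h, of which 111 (0.927%) were higher and 192 (1.6%) lower in TAK1-deleted cells at 6 h. Of the 34 genes with a different change, 16 differed between genotypes at 0 h, 20 at 6 h, 3 at both times and 1 at neither. The genes apart at 6 h but not at 0 h include cytokine and survival genes. Il10, the anti-inflammatory cytokine, read 5.81 and 5.80 at 0 h and 6.25 and 5.93 at 6 h in TAK1-deleted cells, a change of 0.28, where wild type cells changed by 2.51. The difference was -2.23 ± 0.33 (limma adjusted p = 0.00965). Of these 4 groups only wild type at 6 h, on both arrays, lay above the filter value of 7.45, so Il10 was dim elsewhere and the size of the difference rests on dim values. Bcl2l1 rose by 1.27 and by 2.41 in wild type cells, a difference of -1.14 ± 0.18 (limma adjusted p = 0.0121). It is a known NF-κB target that did rise in the deleted cells, by less than in wild type cells. Cr2 fell by 2.50 on the log2 scale against 1.07 in wild type cells, a difference of -1.43 ± 0.21. Cish, a feedback inhibitor of cytokine receptors, rose by 1.06 against 2.22, Il15ra by 0.50 against 1.31, and Pkib, an inhibitor of protein kinase A, by 0.58 against 2.17. Axl, an engulfment receptor of macrophages, fell by 2.39 on the log2 scale against 0.82. Cish, Il15ra, Pkib and Axl were named after their values were seen.

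Genes with a more positive change include Bmf, a pro-apoptotic BH3-only gene, which read 9.70 and 9.65 at 0 h and 9.77 and 9.83 at 6 h. It changed by 0.13 in TAK1-deleted cells and by -0.80 in wild type cells, a difference of 0.93 ± 0.15 (limma adjusted p = 0.014). Ddit4, an inhibitor of mTORC1, changed by 0.34 against -0.75, and Rtn4rl1, a Nogo receptor homologue, by 0.79 against -0.37. Mir181b-2, a microRNA gene, rose by 2.00 and by 0.62 in wild type cells. The arrays of Mir181b-2 were at 6.31 and 6.34 and then 8.25 and 8.39. Its 0 h arrays lay below the filter value of 7.45. The TAK1-deleted mean was 0.08 above wild type at 0 h and 1.45 above it at 6 h. The wild type means were thus dim too, and the size of the difference rests on dim values.

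Several genes with a more negative change were already apart at 0 h. Of the 17 erythroid markers 2, Rhd and Add2, were called for a more negative change, against 0.192% of all genes, but neither was called without TAK1-deleted 0 h replicate 1, and 13 were called with the replicate block. Pklr, the pyruvate kinase of red cells and liver, was 2.46 higher in TAK1-deleted than in wild type cells at 0 h and fell by 2.63 on the log2 scale against 0.76. Tlcd4 was 3.39 higher at 0 h and changed by -3.29 against -0.35, Atp1b2, a sodium pump subunit, was 2.16 higher and changed by -2.45 against -0.69, and the Rhesus antigen gene Rhd was 2.46 higher and changed by -1.64 against -0.19. Steap3, the iron reductase of erythroid cells, was 1.67 higher and changed by -1.72 against -0.37. The erythroid sum at 0 h was 26960 and 22160 against 7988 and 7987 in wild type cells, and its part in these differences was not tested. Reep6 and the asparagine synthetase Asns did not change beyond the test in TAK1-deleted cells (0.17 and -0.23) but rose in wild type cells (2.65 and 1.76), and were 2.23 and 1.93 higher in TAK1-deleted cells at 0 h. Slc43a3, a carrier of purine nucleobases, changed by 0.16 against 1.43, and the amino acid transporter Slc7a5 by 1.51 against 2.34. Among genes lower at 0 h, the neutrophil gene Retnlg changed by -1.37 against -2.57, Gm9733 by -1.98 against -3.10, and Sdc1 by 1.02 against -0.03.

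Some genes close to the pathway missed the threshold. Tnfaip3 rose by 0.46 and by 1.53 in wild type cells, a difference of -1.07 ± 0.22 (limma adjusted p = 0.0519, or 0.000134 with the replicate block). Ccnd2 differed by -0.07 against 1.03, a difference of -1.10 ± 0.24 (limma adjusted p = 0.0605, or 0.000562 with the block). Cables1 had a difference of 1.17 ± 0.24 (limma adjusted p = 0.0511, or 0.000382 with the block). For Nfkbia, Rel, Irf4, Cd83 and Cd86 the difference lay between -0.17 and 0.18 and was not called, with or without the block. For Myc it was -0.69 ± 0.22 (limma adjusted p = 0.236, or 0.000909 with the block) and for Cd69 -0.67 ± 0.21 (limma adjusted p = 0.246, or 0.00103 with the block).

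**Figure D5:**
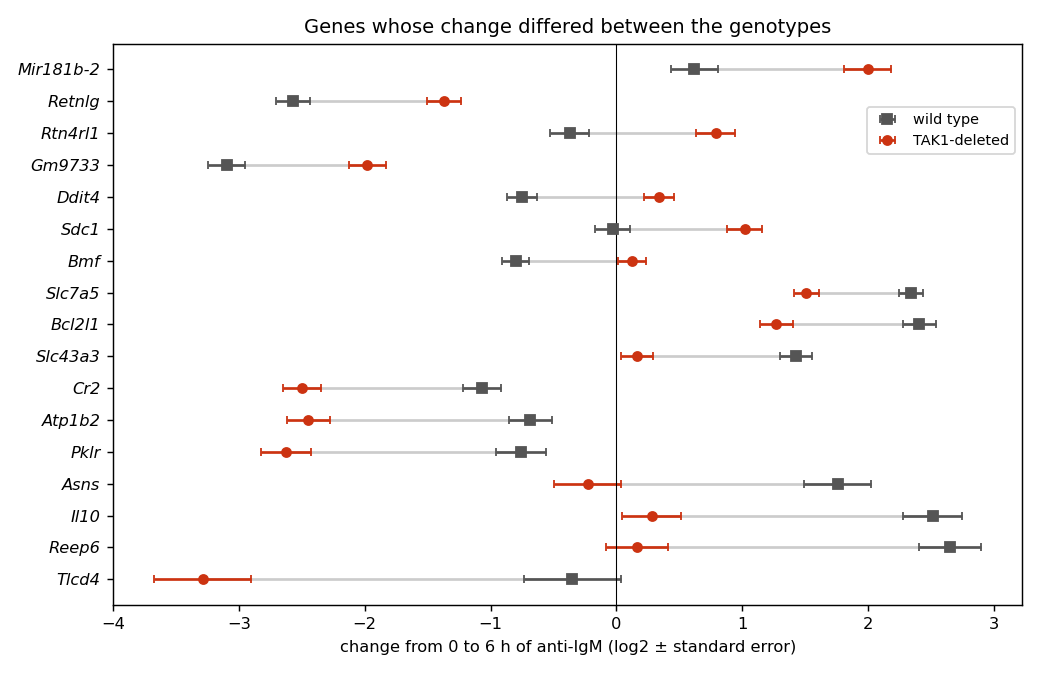
Change from 0 to 6 h of anti-IgM in TAK1-deleted (circles) and wild type (squares) B cells as log2 differences of group means, with bars for the SE, for 17 named genes whose change differed between genotypes. For Il10 (0.28 against 2.51) and Reep6 (0.17 against 2.65) the TAK1-deleted point lies left of the wild type point, and for Mir181b-2 (2.00 against 0.62) it lies right of it.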

How the data were processed

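The arrays were Affymetrix Mouse Gene 1.0 ST. Per the submitters' processing notes, the authors used RMA in Affymetrix Expression Console 1.0, and the deposited values are log2 expression values; the table holds 35556 probe sets from 3.64 to 14.68. Probe sets at or above the median value (7.45) in at least 2 arrays were kept (20326), those with several symbols or none were left out (7191), and the brightest was used for 678 genes with several, which left 11968 genes. In R 4.3.3, limma 3.58.1 with an intensity trend in eBayes fitted 10 group means to 20 arrays with 10 residual degrees of freedom. The fit was tested on simulated data with noise drawn independently for each array. That test does not cover deviations shared by same-numbered arrays, which are described below. Members, the 48 lists and the tests were chosen with earlier results of these data known. Named genes are the 10 largest rises and the 10 largest falls among called genes whose 2 groups do not overlap. To these were added up to 4 called members per list and a fixed set. For the genotype and 3 h comparisons, 6 genes per direction and up to 3 per list were named. Other genes named in the text were chosen after their values were seen. Deviations of same-numbered arrays from their group means correlated in all 45 pairs of groups (0.191 to 0.769; 0.516 for the 2 groups described), so replicate numbers were taken to pair samples and used as a block in an alternative fit. Other alternatives left out each array, used own arrays alone, other filters, the mean of probe sets, equal medians, quantile normalization, array weights or no trend. The number of arrays limits the precision. Promoters are RefSeq windows on GRCm38.p6.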

Additional observations from a re-analysis of the deposited data

Results flagged for a closer look

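In 17 genes the change from 0 to 6 h of anti-IgM differed between TAK1-deleted and wild type B cells by limma's interaction test, which is why they are listed; each is given as the TAK1-deleted change minus the wild type change on the log2 scale. The change was more positive in TAK1-deleted cells for Mir181b-2 (1.38, limma adjusted p = 0.0373), Retnlg (1.20, limma adjusted p = 0.0121), Rtn4rl1 (1.16, limma adjusted p = 0.0354), Gm9733 (1.12, limma adjusted p = 0.0326), Ddit4 (1.08, limma adjusted p = 0.0105), Sdc1 (1.05, limma adjusted p = 0.0319) and Bmf (0.93, limma adjusted p = 0.014). It was more negative for Slc7a5 (-0.83), Bcl2l1 (-1.14), Slc43a3 (-1.26), Cr2 (-1.43), Atp1b2 (-1.77), Pklr (-1.87), Asns (-1.99), Il10 (-2.23), Reep6 (-2.49) and Tlcd4 (-2.94). At 0 h Tlcd4, Pklr, Atp1b2, Reep6, Asns, Slc43a3 and Slc7a5 were higher in TAK1-deleted cells and Retnlg, Gm9733 and Sdc1 lower. Il10, Cr2, Bcl2l1, Bmf, Ddit4, Rtn4rl1 and Mir181b-2 were not called different there. None of the 17 kept the call without TAK1-deleted 0 h replicate 1 or without TAK1-deleted 6 h replicate 2, and the cause was not tested.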

How the results depend on the processing

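The count of genes called from 0 to 6 h in TAK1-deleted cells (4289) was 3188 to 3508 with 1 array left out, and that in wild type cells (5169) was 3947 to 4479; the other alternatives kept both within 1.5 times. The genotype difference (34) gave 19 with the arrays of those groups alone, 772 with the replicate block, 257 with array medians set equal, 323 after quantile normalization, 90 with array weights, and 0 to 36 with 1 array left out. The difference between 6 and 3 h (728) gave 22 with the arrays of those groups alone, 2486 with the replicate block, 1703 with array medians set equal, 1624 after quantile normalization, and 241 to 534 with 1 array left out. The cause was not tested. For the named genes no direction of a called change turned: 2574 of 2626 values for 0 to 6 h kept direction and side of the threshold, 47 lost the call and 5 gained it, against 189 of 948 lost for 3 to 6 h and 109 of 289 for the genotype difference. List medians moved by more than the spread between arrays in 114 of 624 cases. List counts moved by over 1.5 times in 25 of 624; these list counts under the alternatives were added after seeing the data. With 2 arrays per group the lone array of a left-out fit is taken to vary like the other groups. The median and sign of lists near 0 (survival genes, Myc network, endoplasmic reticulum chaperones) turned with the scaling. Among the named genes' changes from 0 to 6 h the replicate block changed no call other than those of Egr1 and Fos.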
